A study of Mus musculus with 6 samples.

Results

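Mouse cardiac fibroblasts exposed for 48 h to the secretome of Ccrl2+ heart macrophages were compared with cardiac fibroblasts kept in phosphate-buffered saline (PBS). The comparison rests on 1 expression array a side, 2 of the 6 arrays of the study, and covers all 19505 genes that the platform's probe annotation names, as for the whole series. For each gene the log2 signal of the PBS array was subtracted from that of the Ccrl2+ secretome array, so a difference of 1 is 2-fold higher and a difference of -1 is 2-fold lower. The mice of all groups were of the C57BL/6N strain and 15 to 16 weeks old. Sorting separated Ccrl2+ from Ccrl2- macrophages in a pool of 6 wild-type hearts, at 1 week after TAC, transverse aortic constriction, an operation that narrows the aorta so that the heart pumps against a raised pressure. The other 4 arrays held fibroblasts with the Ccrl2- secretome and cardiomyocytes (CM) with PBS, the Ccrl2+ secretome or the Ccrl2- secretome, also for 48 h, and their values are given beside some results. The labels differ on the exposure, since the source labels name a secretome while the protocols speak of co-culture with the sorted cells. A description shared by all 6 arrays speaks of cardiac macrophages. The title of the PBS array calls it sham. The culture medium, and whether it was the same for every culture, is not given in the sources used here. With 1 array a group, and the macrophages from 1 pool, no difference below has a replicate check, and precision is limited by this number of arrays.

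Cardiac fibroblasts make and remodel the extracellular matrix of the heart, and after injury they divide, contract and lay down scar. Glucocorticoids act on fibroblasts through the glucocorticoid receptor, a nuclear receptor that enters the nucleus with its hormone and binds short palindromic DNA elements near genes such as Fkbp5, Tsc22d3 and Sgk1. Genes of mitosis share a promoter element, the cell cycle homology region (CHR), through which the DREAM complex holds them down in resting cells, and genes of amino acid supply share an element bound by ATF4, the transcription factor of the integrated stress response.

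Both arrays carried the genes of the labelled cell type. All 13 fibroblast markers with a value passed the floor, 6.55, which is the median of all named values and the level that the higher value of a gene had to reach to be counted. The collagen gene Col3a1 lay at 17.4 in PBS and 17.15 with the secretome, the proteoglycan gene Dcn at 17.53 and 17.64, and the fibroblast transcription factor gene Tcf21 at 15.0 and 15.19, and 0 of the 13 differed by 2-fold. Of the 19505 genes, 10042 passed the floor and 9463 did not. In what follows, higher and lower, said of a gene past the floor or counted in a list, mean with the Ccrl2+ secretome and by 2-fold or more. Differences were taken as measured, also where 1 value lay below the floor. Against the floor itself such a difference can be under 2-fold. By that measure 489 (4.87%) were higher and 616 (6.13%) were lower, 11.0% in either direction, and the median difference was -0.07. Differences of 4-fold or more were found in 124 genes upward and 96 downward, and of 8-fold or more in 49 upward and 8 downward. Negative control probe sets differed more often than genes: 19.7% of the 2992 past the floor reached 2-fold, 3.41% reached 4-fold against 2.19% of genes, and 1.17% reached 8-fold against 0.568%. On the pair of arrays the 95th percentile of the negative controls was 10.73, so genes with lower values share their range with controls. The poly-A spike-in transcripts were 0.56 to 1.09 higher on the secretome array and the hybridisation spike-ins 0.19 to 0.31 higher. Their part in the results was not tested. Single differences near 2-fold, and single larger ones at low signal, lie within what the control probe sets showed.

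**Figure D1:**
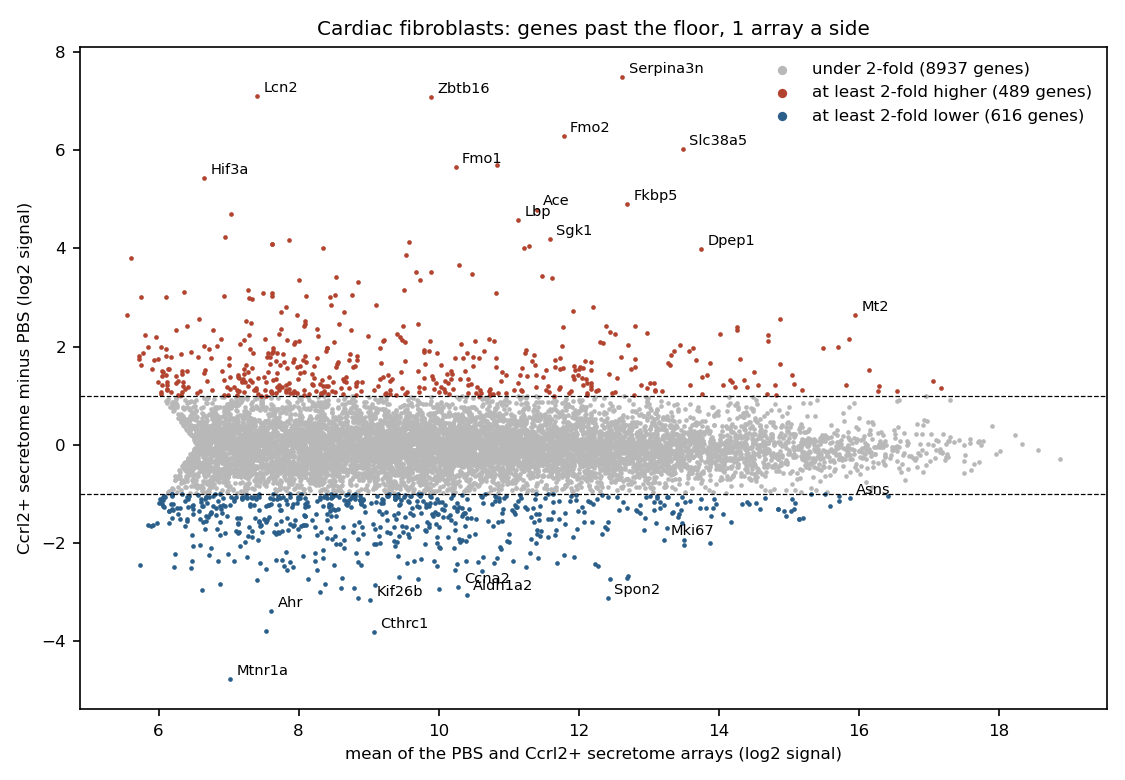
Each point is a gene past the floor, with the mean log2 signal of the PBS and Ccrl2+ secretome fibroblast arrays on the horizontal axis and the difference between them on the vertical axis, and the dashed lines mark 2-fold. Values below the floor are drawn as measured, so of the points at the extremes Serpina3n (7.49) is a measured difference, while Zbtb16, Lcn2 and Mtnr1a (drawn lowest, at -4.77) are known only by their bounds of 6.89, 4.41 and -2.86.

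The genes that differed most were higher with the secretome. Serpina3n, which encodes a secreted serine protease inhibitor of the acute phase, lay at 8.88 in PBS and 16.37 with the secretome, a difference of 7.49. As for several genes below, its PBS value lies under 10.73, in the range of the negative controls, so the size of such a difference is approximate. It is uncertain as a single gene because its close relatives Serpina3f (6.66 and 9.3) and Serpina3i (7.38 and 8.48) were also higher and their probes can bind related transcripts. The flavin monooxygenase genes Fmo2 (8.64 and 14.93) and Fmo1 (7.42 and 13.07), whose enzymes oxidise nitrogen and sulphur in drugs and metabolites, differed by 6.29 and 5.65. Slc38a5, a transporter of glutamine, serine and glycine, lay at 10.47 and 16.5, a difference of 6.03. Art3, an ADP-ribosyltransferase-like surface protein gene, followed at 7.99 and 13.68. Among the genes whose PBS value lay below the floor, the difference can be given only as a bound against the floor. Zbtb16, a zinc finger transcriptional repressor gene, was at least 6.89 higher (6.35 and 13.44), Lcn2, which binds bacterial siderophores, at least 4.41 higher (3.85 and 10.96), and Nt5e, the ectoenzyme CD73 that makes adenosine from AMP, at least 3.4 higher (5.77 and 9.95). Pla2g7, a phospholipase that degrades platelet-activating factor, the thyroid hormone receptor gene Thrb and F13a1, a subunit of coagulation factor XIII, were at least 3.8, 3.13 and 3.12 higher. Secreted and surface proteins of the fibroblast were among them: the dipeptidase gene Dpep1 lay at 11.76 and 15.74, the matricellular gene Sparcl1 at 9.26 and 13.31, the serine protease gene Htra3 at 7.51 and 11.65, and the gamma-glutamyltransferase family gene Ggt5 at 6.83 and 10.25.

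Several of these genes belong to the targets of the glucocorticoid receptor, the list with the highest median apart from lists of 3 or fewer genes past the floor. The lists were chosen with earlier results of these data known, so this rank is a description and not a test. Of 43 listed targets with a value, 36 passed the floor, and of those 22 were higher and 2 lower, with a median of 1.47 against -0.07 for all genes past the floor. Of all genes past the floor 4.87% were higher and 6.13% lower. Fkbp5, a co-chaperone that damps the receptor in a feedback loop, lay at 10.24 in PBS and 15.15 with the Ccrl2+ secretome, a difference of 4.91. Sgk1, a kinase of ion transport and survival, lay at 9.49 and 13.68, a difference of 4.19. Tsc22d3, the leucine zipper protein GILZ that binds inflammatory transcription factors, lay at 9.92 and 13.31, and the clock gene Per1 was 2.71 higher. The metallothionein gene Mt2, which binds zinc, lay at 14.63 and 17.27, and Mt1 at 16.6 and 17.76, although these paralogs can share probes. The Krüppel-like factor genes Klf9 (12.4 and 14.31) and Klf15 (7.17 and 9.38), both induced by the receptor, were 1.91 and 2.21 higher. Hif3a, Map3k6 and Sult1a1 started below the floor and were at least 2.82, 2.31 and 1.9 higher. Exceptions were Crispld2 (11.91 and 9.34) and Gadd45b (9.31 and 8.3), which were lower, and the phosphatase gene Dusp1 (14.66 and 14.54), Ddit4 (9.48 and 9.37) and Tgm2 (9.47 and 9.1), which stayed within 2-fold.

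On the other 4 arrays, for which levels are given side by side, the targets were not uniform. The Ccrl2- fibroblast comparison shares the PBS array used here, and the CM arrays have a PBS array of their own. Fkbp5 lay at 11.0 in fibroblasts with the Ccrl2- secretome and at 14.72, 14.83 and 14.94 in CM with PBS, the Ccrl2+ secretome and the Ccrl2- secretome. In the same order Zbtb16 lay at 6.05, 12.56, 12.28 and 12.22, Sgk1 at 10.07, 15.08, 14.79 and 14.28, and Tsc22d3 at 9.09, 12.51, 12.25 and 12.55. These 4 genes were therefore low on 2 fibroblast arrays, PBS and Ccrl2- secretome, and high on the Ccrl2+ fibroblast array and on all 3 CM arrays, the one in PBS included. Lcn2 and Mt2 behaved otherwise, since Lcn2 reached 17.28 and Mt2 17.85 in fibroblasts with the Ccrl2- secretome. Whether a hormone or another component of a medium or secretome moved with these genes was not tested. The receptor gene itself, Nr3c1, lay at 9.3 in PBS, 8.26 with the Ccrl2+ secretome and 9.92 with the Ccrl2- secretome. Hsd11b1, the enzyme that regenerates active corticosterone inside the cell, was high on both arrays (14.94 and 15.86), and H6pd, which supplies its cofactor, lay at 10.45 and 12.27. The steroid and drug efflux pump genes Abcb1a (6.77 and 8.9) and Abcb1b (7.41 and 9.39) were both higher, and as close paralogs they are uncertain as single genes.

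**Figure D2:**
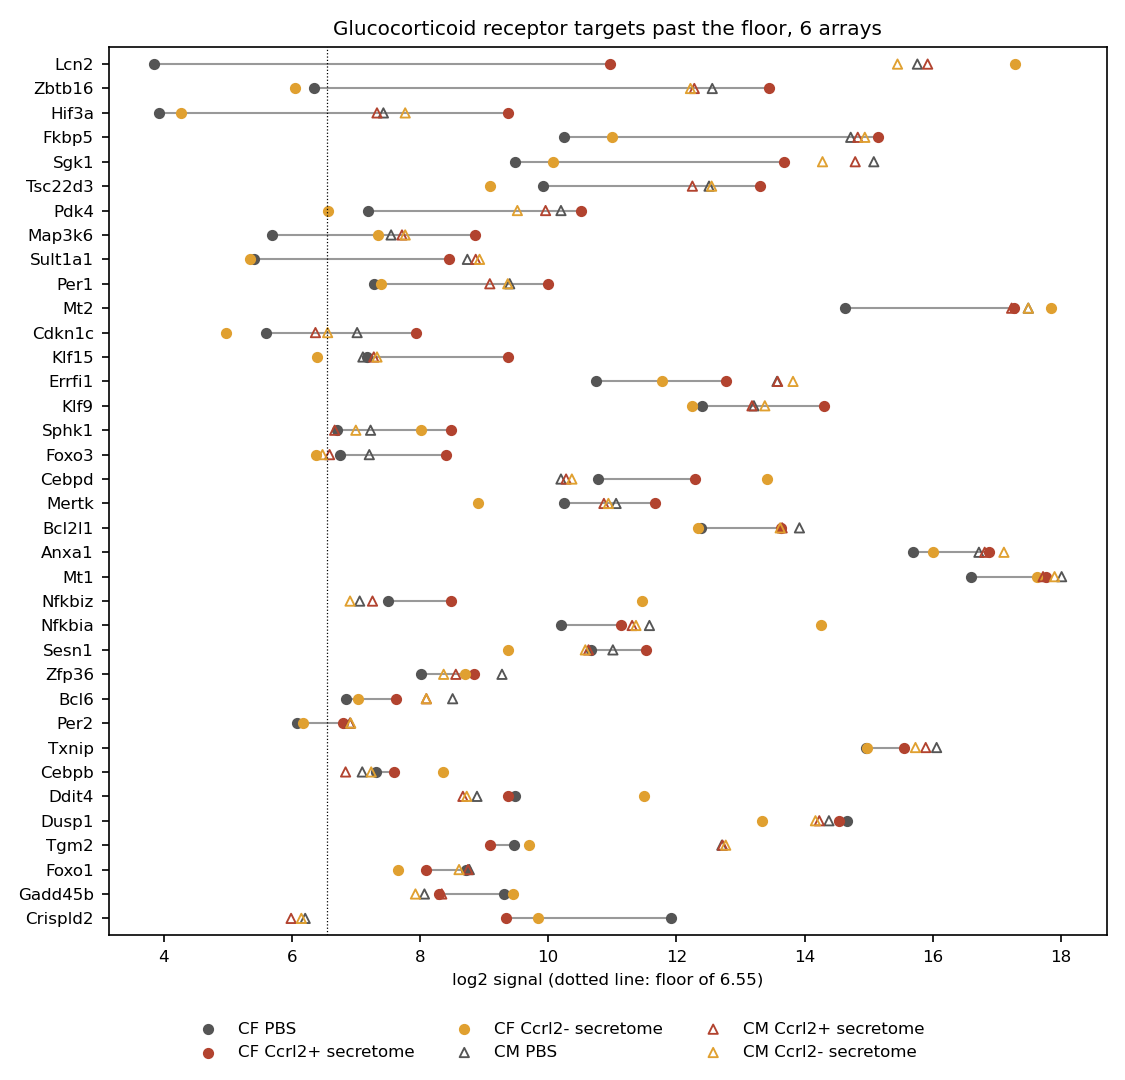
Each row is a glucocorticoid receptor target past the floor, ordered by the difference between the Ccrl2+ secretome and PBS fibroblast arrays (joined by a line), with log2 signal on the horizontal axis, filled circles for fibroblasts and open triangles for CM. For Zbtb16, Fkbp5, Sgk1 and Tsc22d3 the open triangles and the Ccrl2+ fibroblast circle lie together at the right, and the PBS and Ccrl2- fibroblast circles lie together at the left.

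Promoters were read where the RefSeq promoter table of build GRCm38.p6 held the gene, as 250 bases before and 50 after the annotated start. The glucocorticoid receptor element was searched as GNACA and TGTNC with any 3 bases between them, which reads the same on both strands. A gene was counted where any of its promoters matched. The element stood in 4 of 30 matched targets past the floor (13.3%), in 6 of 381 higher genes (1.57%) and in 1 of 486 lower genes (0.206%). It stood in 28 of 8179 genes past the floor (0.342%) and in 145 of all 27025 genes in the table (0.537%). Counted by promoter, the share was 8.51% for the targets and 0.286% for genes past the floor. A match describes the letters and not a bound site. The target list was chosen with earlier results of these data known, so its share describes the list. The 6 matches among the higher genes are shown with 20 bases on either side, 5′ to 3′ on the gene's strand and the element in capitals, because they include Serpina3n, the gene with the largest difference, and Sgk1.
Serpina3n, chr12:104406610-104406662, plus strand: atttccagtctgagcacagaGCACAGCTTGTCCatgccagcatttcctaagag
Slc10a6, chr5:103629534-103629586, minus strand: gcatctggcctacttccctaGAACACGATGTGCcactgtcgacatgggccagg
Sgk1, chr10:21993682-21993734, plus strand: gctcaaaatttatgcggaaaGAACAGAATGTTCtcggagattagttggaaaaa
Map3k6, chr4:133240617-133240669, plus strand: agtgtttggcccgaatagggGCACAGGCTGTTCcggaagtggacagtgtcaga
Trim63, chr4:134314892-134314944, plus strand: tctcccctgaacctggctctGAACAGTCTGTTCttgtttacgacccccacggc
Mt1, chr8:94178975-94179027, plus strand: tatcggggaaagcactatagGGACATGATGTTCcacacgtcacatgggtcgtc
The transporter gene Slc10a6, which takes up sulphated steroids, was at least 2.83 higher (4.68 and 9.38), and the muscle ubiquitin ligase gene Trim63 lay at 7.29 and 8.76. The elements of Serpina3n and Mt1 lay 65 and 81 bases before the start, and those of the other 4 lay 150 to 195 bases before it.

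Genes next to hormone signalling differed in part, in small lists that each rest on a few calls. Of all genes past the floor 4.87% were higher and 6.13% lower. In the circadian clock list 18 of 21 members with a value passed the floor, 3 higher and 4 lower (median -0.04). The activators Npas2 (6.64 and 8.62) and Arntl (10.44 and 11.49) were higher with Per1. Per3 (10.15 and 8.16), Dbp (14.46 and 13.18), Ciart (6.65 and 5.44) and the repressor gene Nr1d1 (9.01 and 7.95) were lower, while Clock stayed at 14.16 and 14.11. Ciart lay just above the floor in PBS and below it with the secretome, so its bound is far under 2-fold. Among 25 FOXO target and autophagy genes past the floor, 4 were higher and 0 lower (median 0.42). They were the ubiquitin ligase gene Fbxo32, at least 2.49 higher (5.94 and 9.04), Foxo3 (6.76 and 8.41), Trim63 and the mitophagy gene Bnip3 (8.19 and 9.47). Of 15 renin-angiotensin and natriuretic peptide genes past the floor, 4 were higher and 1 lower. Ace, which converts angiotensin I to angiotensin II, lay at 9.01 and 13.8, a difference of 4.79, and Agt, the precursor of angiotensin, at 8.45 and 12.12. With the Ccrl2- secretome Ace (8.97) and Agt (8.54) lay close to PBS. The peptide-degrading enzyme gene Mme was at least 2.68 higher, Ece1, the endothelin-converting enzyme gene, lay at 9.93 and 11.7, the receptor gene Agtr1a stayed within 2-fold (8.13 and 8.54), and the soluble guanylate cyclase gene Gucy1b1 was lower (14.96 and 13.38). Only 2 of 19 cholinergic and adrenergic receptor and enzyme genes with a value passed the floor, and both differed by less than 2-fold.

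**Figure D3:**
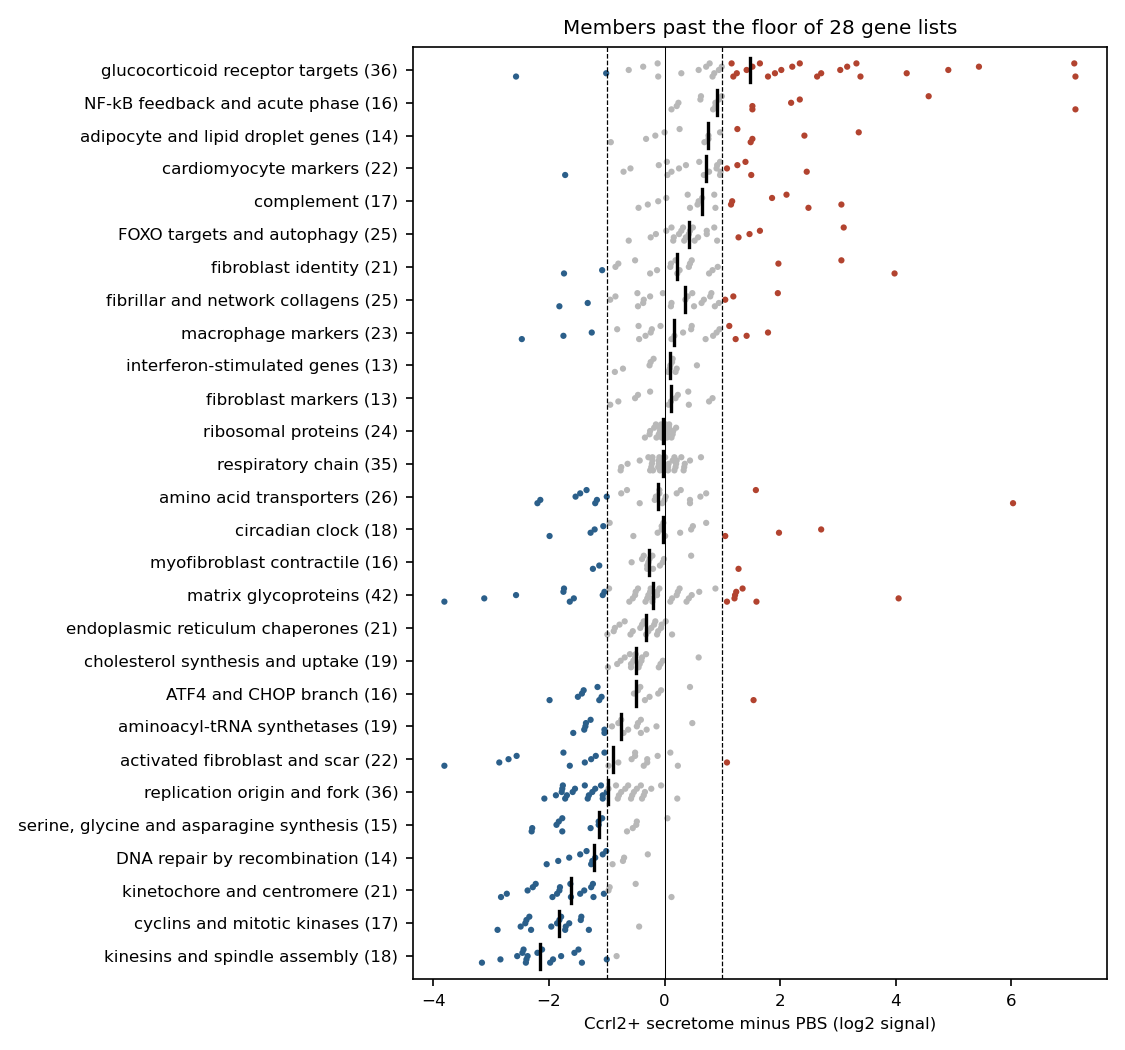
Each point is a member past the floor of 1 of 28 gene lists (number of such members in brackets), placed by the difference between the Ccrl2+ secretome and PBS fibroblast arrays in log2 signal, with the list median as a black bar and 2-fold as dashed lines. Glucocorticoid targets have the highest median (1.47) and kinesins the lowest (-2.16), while ribosomal protein and respiratory chain genes stay within 2-fold.

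Cell division lists had medians below 0 at every step from origin licensing to cytokinesis, although not every member was lower. Across all cell division lists 201 genes passed the floor, 117 of them lower (58.2%) and 4 higher (1.99%). The shares over all genes past the floor were 6.13% and 4.87%. In mitotic entry, 16 of 17 cyclin and mitotic kinase genes past the floor (19 with a value) were lower and 0 higher, with a median of -1.82. Ccna2, the cyclin of S phase and mitotic entry, lay at 11.72 in PBS and 8.83 with the secretome, a difference of -2.89. Ccnb2 lay at 12.84 and 11.12, the central mitotic kinase gene Cdk1 at 9.45 and 7.59, and Plk1 at 12.32 and 10.5. In the spindle, 17 of 18 kinesin and assembly genes were lower, with a median of -2.16. The motor gene Kif11, which pushes the spindle poles apart, lay at 11.75 and 9.36, Tpx2 at 11.95 and 9.83, and Kif20a at 11.51 and 8.96. At the kinetochore, which ties chromosomes to the spindle, 17 of 21 genes were lower (median -1.62), such as Ndc80 (9.5 and 6.77), Cenpm (9.79 and 6.96) and the centromeric histone gene Cenpa (11.31 and 9.37). In the spindle checkpoint and anaphase control, 7 of 15 were lower (median -0.71), with Cdc20 at 9.1 and 6.56 and Ube2c at 12.24 and 9.87, whereas Zwint (11.55 and 11.83) and the securin gene Pttg1 (10.44 and 11.19) were not. Condensin and chromosome structure genes were lower in 11 of 14 (median -1.16), among them the proliferation antigen Mki67 (14.19 and 12.26) and Top2a (10.3 and 8.65). Cytokinesis genes were lower in 6 of 7 (median -1.67), with Prc1, which bundles the midzone microtubules, at 9.98 and 7.26.

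DNA replication genes were lower to a lesser degree: 18 of 36 origin and fork genes past the floor (38 with a value) were lower and 0 higher, with a median of -0.98. The primase gene Prim1 lay at 11.05 and 8.97, and the replicative helicase genes Mcm3 (10.38 and 8.61), Mcm2 (10.7 and 8.94) and Mcm5 (9.29 and 7.6) were lower, whereas Gins4 (11.3 and 11.07) and Mcm10 (7.58 and 7.52) were close to PBS. Of 15 nucleotide supply genes 3 were lower, Rrm2 (11.27 and 9.17), the ribonucleotide reductase subunit of dividing cells, Umps (10.25 and 8.78) and Tyms (10.72 and 9.63). Recombination repair genes were lower in 10 of 14 (median -1.23), for example Brca1 (7.4 and 5.94) and Chek1 (9.82 and 8.47). The second value of Brca1 lay below the floor, so its bound is under 2-fold.

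Replication-dependent histone genes, grouped here after their values had been seen, were lower with the rest. Of 53 with a value, 51 passed the floor, 38 were lower and 0 higher, with a median of -1.31. The H3 genes were lower in 9 of 9 (median -1.59, from -1.94 to -1.45), the H2A genes in 9 of 13, the H2B genes in 9 of 14, the H4 genes in 8 of 11 and the H1 genes in 3 of 4. H3c6 lay at 14.47 in PBS and 12.53 with the secretome, and H2ac10 at 14.28 and 12.68. Replacement histone genes, expressed outside S phase, were lower in 4 of 9 (median -0.88). Histone genes are near-identical copies whose probes can share transcripts, so they are uncertain one by one. They sit in clusters, and the runs of neighbouring genes past the floor that were lower lay on chromosome 13, with up to 11 genes in a run, and on chromosome 3, with 5.

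The brakes of the cell cycle showed no single direction. Of 14 CDK inhibitor and growth arrest genes past the floor, 3 were higher and 3 lower (median -0.02). Cdkn1c, the inhibitor p57 and a listed glucocorticoid target, was at least 1.39 higher (5.6 and 7.94), Gas6, the ligand of the TAM receptors, lay at 13.59 and 16.15, and the antiproliferative gene Tob2 at 7.33 and 8.81. Cdkn1a, the inhibitor p21 (14.65 and 14.25), and Cdkn1b, the inhibitor p27 (12.32 and 12.47), stayed within 2-fold, and Cdkn2c (8.92 and 7.29), Btg1 (11.74 and 10.47) and Gas2, with a bound of -1.17, were lower. Among the E2F, Rb and DREAM regulators 6 of 17 were lower and 1 higher (median -0.46). The lower ones included E2f7 (8.2 and 6.34), E2f8 (10.8 and 9.32), Mybl2 (7.19 and 5.78) and Uhrf1 (10.82 and 8.8), which are themselves cycle-dependent. The second value of Mybl2 lay below the floor, so its bound is under 2-fold. The DREAM pocket protein gene Rbl2 lay at 10.95 and 11.77, Rb1 at 10.34 and 10.36 and E2f4 at 8.84 and 8.79. Cyclin E genes were lower (Ccne1 at 9.8 and 8.61, Ccne2 at 8.4 and 7.07), and Myc (12.27 and 11.66) stayed within 2-fold. Of 20 p53 targets past the floor 1 was higher and 3 lower (median -0.12).

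**Figure D4:**
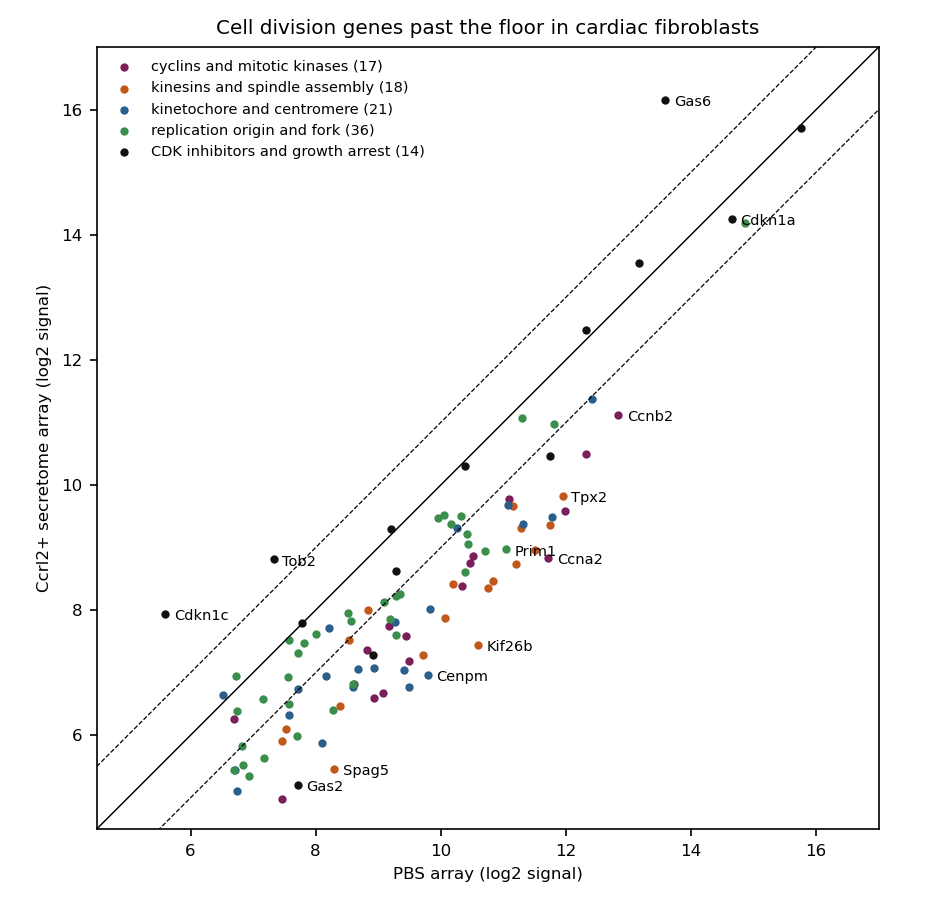
Each point is a gene past the floor of 5 cell division lists, with the log2 signal of the PBS fibroblast array on the horizontal axis and of the Ccrl2+ secretome array on the vertical axis, the solid line for equal values and the dashed lines for 2-fold. Most cyclin, kinesin and kinetochore genes lie below the lower dashed line over the range of signals, while Cdkn1c, Gas6 and Tob2 lie above the upper one.

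The CHR was searched as TTTGAA and TTCGAA on both strands. It stood in 56 of 80 genes of the 6 mitosis lists with a promoter in the table (70.0%), against 1361 of 8179 genes past the floor (16.6%) and 21.7% of all genes in the table. Of 75 matches in the mitosis promoters, 53 (70.7%) began within 50 bases of the annotated start, against 407 of 1630 matches in promoters of genes past the floor. CCAAT, on either strand, stood in 67.5% of the mitosis genes and 44.0% of genes past the floor. In the replication list the E2F element, searched on either strand as TTGGCGC or else as TTCCCGC or else as TTGCCGC or else as TTCGCGC, stood in 19 of 27 genes (70.4%), against 19.6% of genes past the floor. The lists were chosen by function, so these shares describe the lists and not the difference between the arrays. Windows are shown for the 7 lower genes of these lists with the largest differences among those with a match wholly before the start (Kif26b, an atypical kinesin gene, and the genes of 1 chromosome were left aside), on the gene's strand and with the CHR in capitals, to show where the element lies. Where a promoter held several matches, the nearest to the start is given. Each window ends at most 20 bases after the element and never beyond the base before the start.
Prc1, chr7:80294426-80294471, plus strand: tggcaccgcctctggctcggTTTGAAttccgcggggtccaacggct
Cdc20, chr4:118437344-118437381, minus strand: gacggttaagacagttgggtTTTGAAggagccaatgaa
Ckap2, chr8:22185895-22185940, minus strand: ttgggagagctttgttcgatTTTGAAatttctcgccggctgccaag
Kif11, chr19:37376343-37376381, plus strand: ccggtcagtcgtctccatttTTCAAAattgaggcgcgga
Cenpm, chr15:82244394-82244439, minus strand: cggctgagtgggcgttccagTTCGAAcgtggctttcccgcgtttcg
Ube2c, chr2:164769880-164769925, plus strand: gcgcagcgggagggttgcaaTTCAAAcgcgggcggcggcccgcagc
Cenpn, chr8:116921711-116921739, plus strand: cccgagcggccattggcggcTTCAAAagc
Between the element and the start lay 24 bases in Prc1, 12 in Cdc20, 13 in Kif11, 77 in Cenpm, 95 in Ckap2, 23 in Ube2c and 3 in Cenpn. In the order shown the differences were -2.72, -2.54, -2.4, -2.39, -2.83, -2.37 and -2.37.

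Most amino acid synthesis genes were lower, as was a minority of the transporter and tRNA synthetase genes, and 1 transporter gene was far higher. Across the amino acid and stress lists 97 genes passed the floor, 32 of them lower (33.0%) and 3 higher (3.09%). The shares over all genes past the floor were 6.13% and 4.87%. Of 15 serine, glycine, proline and asparagine synthesis and one-carbon genes past the floor, 10 were lower and 0 higher (median -1.14). Phgdh, the first enzyme of serine synthesis, lay at 13.33 and 12.05, Shmt2, which makes glycine in mitochondria, at 12.44 and 11.3, and Asns, which makes asparagine, at 16.41 and 15.33. The mitochondrial folate enzymes Mthfd2 (12.58 and 10.75), Mthfd1l (10.51 and 8.64) and Aldh1l2 (11.98 and 9.68), and Aldh18a1 (13.08 and 10.79), which starts proline synthesis, were lower by more. Among 26 transporters 8 were lower and 2 higher (median -0.12). The cationic amino acid transporter gene Slc7a3 (12.41 and 10.21), the cystine importer gene Slc7a11 (9.42 and 7.27), Slc7a1 (12.67 and 11.32) and Slc7a5 (15.03 and 13.83), the large neutral amino acid transporter, were lower. The exception was Slc38a5, at 10.47 in PBS, 16.5 with the Ccrl2+ secretome and 8.65 with the Ccrl2- secretome, and Slc43a2 was higher too (7.19 and 8.77). Slc38a2, a glutamine transporter of the same family, stayed at 16.19 and 16.1. Aminoacyl-tRNA synthetase genes, which charge tRNAs, were lower in 7 of 19 and higher in 0 (median -0.75), led by Cars (12.86 and 11.28), Wars (12.5 and 11.11) and Iars (14.03 and 12.66), while Qars lay at 13.12 and 13.6.

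The ATF4 and CHOP branch of the stress response differed in the same direction, with 7 of 16 genes lower and 1 higher (median -0.5). Atf4 lay at 15.21 and 14.12, the proapoptotic factor gene Ddit3 (CHOP) at 12.09 and 10.69, the pseudokinase gene Trib3 at 10.08 and 8.65 and the glutathione-degrading enzyme gene Chac1 at 8.59 and 7.09. Stc2 was higher (11.98 and 13.52). The chaperones of the other stress branches stayed within 2-fold in 21 of 21 genes (median -0.32), from Herpud1 (14.6 and 13.61) to Ern1 (9.69 and 9.82), with Hspa5, the chaperone BiP, at 17.2 and 16.65. The ATF4 element was searched as TGATGNAA on both strands. It stood in 6 of 15 genes of this branch (40.0%) and in 4 of 12 synthetase genes (33.3%), against 2.75% of genes past the floor and 4.51% of all genes in the promoter table. The genes of the 1 chromosome left aside for the CHR windows were left aside here too, so the next count is not complete. Of the 10 remaining genes of these lists and the synthesis list with the element wholly before the start, 5 were lower and 5 stayed within 2-fold. The lower ones were Vldlr (-1.99), Chac1, Tars, Pck2 and Asns, and the others were Gars (-0.8), Got1 (-0.49), Jdp2 (-0.34), Nupr1 (-0.26) and Atf3 (0.44). Windows of 4 lower genes and 2 of the others, Nupr1 and Atf3, are shown with the element in capitals, because the element stood in both kinds of gene.
Asns, chr6:7693210-7693252, minus strand: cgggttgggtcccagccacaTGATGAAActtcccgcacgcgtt
Chac1, chr2:119351029-119351076, plus strand: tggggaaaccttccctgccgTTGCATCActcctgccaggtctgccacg
Tars, chr15:11399659-11399693, minus strand: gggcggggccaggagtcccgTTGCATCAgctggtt
Pck2, chr14:55540143-55540190, plus strand: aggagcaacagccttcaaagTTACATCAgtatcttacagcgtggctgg
Nupr1, chr7:126625553-126625600, minus strand: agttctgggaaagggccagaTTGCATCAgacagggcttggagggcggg
Atf3, chr1:191183416-191183463, minus strand: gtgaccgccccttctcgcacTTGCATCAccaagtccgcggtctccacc
Tars lay at 13.8 and 12.52, Pck2, the mitochondrial carboxykinase gene, at 12.29 and 11.15, and Atf3 at 7.95 and 8.39. Nupr1 and Atf3, which share the letters of Chac1 and Tars, differed by less than 2-fold.

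**Figure D5:**
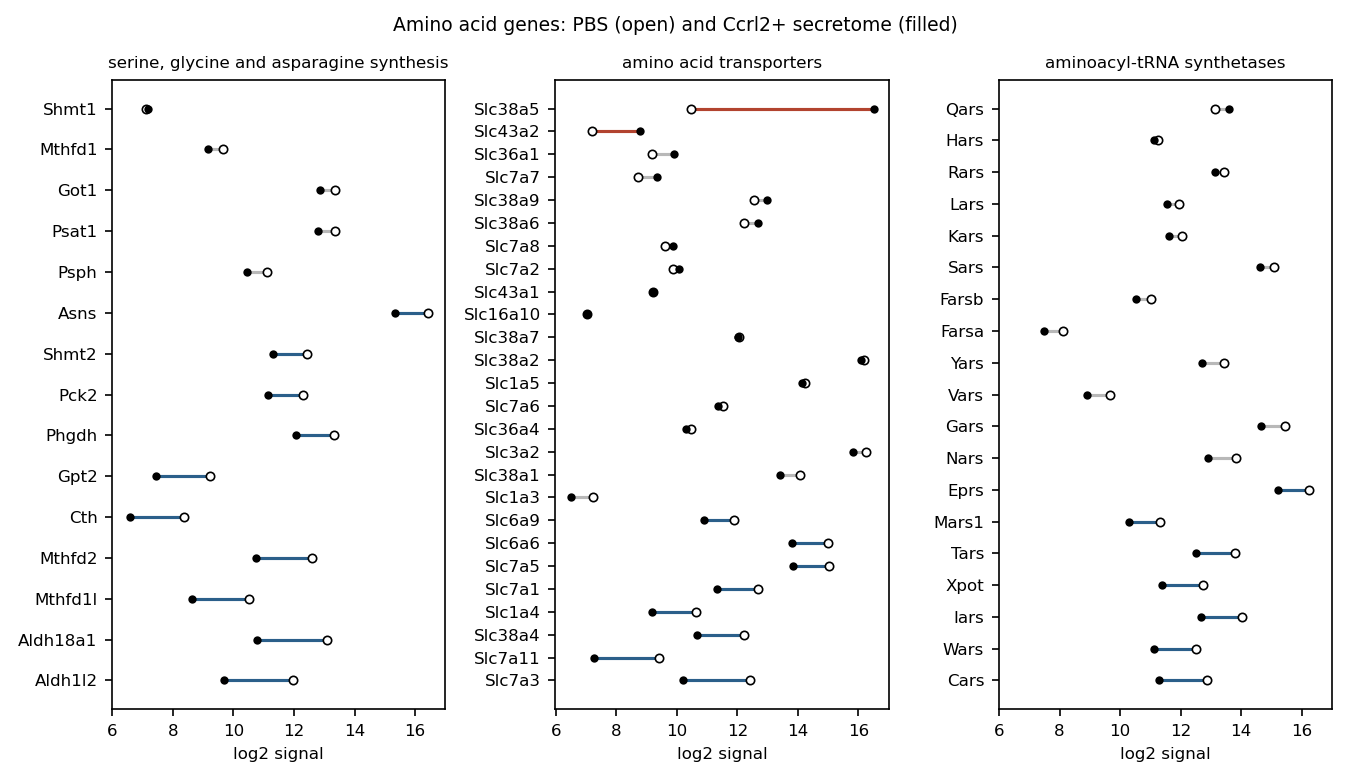
Open points give the log2 signal of the PBS fibroblast array and filled points that of the Ccrl2+ secretome array for synthesis, transporter and tRNA synthetase genes past the floor, with lines in colour where the difference is at least 2-fold. The filled point lies left of the open point for 14 of 15 genes in the left panel and 18 of 19 in the right, and Slc38a5, from 10.47 to 16.5, is the longest line.

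Fibroblast activation genes were lower as a list, without the contractile genes. Of 22 activated fibroblast and scar genes past the floor (27 with a value), 10 were lower and 1 higher, with a median of -0.88. Cthrc1, a secreted marker of activated cardiac fibroblasts, lay at 10.98 in PBS and 7.17 with the secretome, a difference of -3.81. The matricellular gene Ccn4 (10.52 and 7.66), the growth factor gene Fgf18 (10.79 and 8.09), the collagen-binding integrin gene Itga11 (9.54 and 6.98) and the tenascin gene Tnc (12.34 and 10.59) were lower too. The genes with the highest signal of this list did not differ by 2-fold: Postn lay at 16.05 and 16.28, the smooth muscle actin gene Acta2 at 17.9 and 17.54, Fn1 at 17.86 and 17.35, Ccn2 at 16.61 and 16.49 and Lox at 17.38 and 17.08. Of 16 contractile genes 1 was higher (Des, 6.55 and 7.83) and 2 were lower (Actg2, 9.56 and 8.32, and Cnn1, 9.49 and 8.36). In the fibroblast identity list 3 of 21 were higher, Dpep1, C7 (6.99 and 10.05) and the actin-severing gene Gsn (14.5 and 16.47), and 2 lower, the microfibril gene Mfap5 (11.11 and 9.37) and Cd248 (11.47 and 10.39). YAP and TEAD targets were higher in 3 of 23 and lower in 0 (median -0.12), and the usual readouts Ccn1 (16.36 and 15.88) and Ccn2 stayed within 2-fold.

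Matrix genes differed in both directions, with 20 of 161 past the floor higher (12.4%) and 25 lower (15.5%), beside 4.87% and 6.13% of all genes past the floor. The lists are small, and a few calls in a list, as among collagens or integrins, lie near those shares. Of 25 collagen genes past the floor 3 were higher and 2 lower (median 0.36). The fibrillar chains Col1a1 (16.63 and 15.69) and Col1a2 (17.06 and 16.6) stayed within 2-fold, as did Col4a1 of basement membranes (13.83 and 14.64). Col5a2 (13.49 and 12.16) and Col14a1 (10.47 and 8.65) were lower, and Col6a1 (11.6 and 12.65), Col4a3 (7.79 and 8.98) and Col6a6, at least 0.54, were higher. Collagen processing genes stayed within 2-fold in 20 of 21. Of 22 proteoglycan genes 3 were higher, among them the small leucine-rich genes Aspn (12.65 and 14.62) and Omd (6.65 and 8.44), and 3 were lower, among them Podn (9.61 and 7.58) and Fmod (13.8 and 12.06). Of 42 matrix glycoprotein genes 7 were higher and 9 lower (median -0.2). Sparcl1 led the higher ones, followed by Spon1 (10.86 and 12.45), Matn2 (9.5 and 10.85) and the calcification inhibitor gene Mgp (14.46 and 15.7). Cthrc1 and Spon2 (13.98 and 10.86) led the lower ones. Of 28 metalloproteinase, TIMP and ADAMTS-type genes 5 were higher and 6 lower (median 0.1). Beside Htra3, Adamts1 lay at 13.07 and 14.45, while Adamtsl3 (14.05 and 11.33) and the membrane protease gene Mmp16 (13.51 and 11.04) were lower. Among 15 integrin genes the integrin-like gene Itgbl1 was higher (12.81 and 14.54), and Itga11 and Itga4 (13.44 and 11.02) were lower.

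Of 199 signalling genes past the floor 32 were lower and 14 higher, against a background of 6.13% and 4.87%. In the TGF-beta family, which drives scar formation, 3 of 12 ligand genes past the floor were lower and 0 higher: Bmp3 (11.47 and 9.04), Gdf6 (11.95 and 9.99) and Bmp4 (15.5 and 14.19). Tgfb1 (12.6 and 12.9) and Tgfb3 (14.24 and 14.2) stayed within 2-fold. Of 27 receptors, inhibitors and targets the co-receptor gene Tgfbr3 was higher (9.27 and 12.37), and Fstl1 (15.61 and 14.26), Id2 (15.24 and 13.93) and Smad3 (11.71 and 10.57) were lower. Wnt genes were higher in 2 of 24, the secreted gene Dkk3 (11.3 and 13.6) and the receptor gene Ror1 (8.98 and 10.63), and lower in 5, among them Fzd5 (8.9 and 7.26) and Sfrp2 (15.69 and 14.5). FGF genes were lower in 4 of 23, with Fgf9 at a bound of -0.98, Fgf7 at 7.94 and 6.32 and the receptor gene Fgfr2 at 11.22 and 10.04. In the IGF system the binding protein genes Igfbp3 (10.8 and 13.6), Igfbp6 (10.56 and 11.96) and Igfbp5 (11.72 and 12.84) were higher. Igfbp4 (13.24 and 11.92) and Pappa (12.27 and 10.36), the protease that cleaves it, were lower, while Igf1 stayed at 15.52 and 15.13. Of 19 neurotrophic and axon guidance genes 4 were lower, the guidance receptor gene Robo2 (10.25 and 7.34), its ligand gene Slit2 with a bound of -0.8, Bdnf (11.43 and 9.62) and Gfra2 (8.72 and 6.98), and Ntrk3 was at least 0.48 higher. Of 20 angiogenic genes Vegfa was lower (12.48 and 10.96), as were Serpinf1 (12.97 and 11.4) and Pdgfd (10.85 and 9.82), and Pdgfc (7.72 and 9.4), Kitl (8.96 and 10.46) and Adm (14.34 and 15.76) were higher. Of 16 Notch, Hedgehog and Hippo-related genes past the floor 3 were lower, 1 was higher and 12 stayed within 2-fold. The lower ones were the Notch targets Hes1 (8.23 and 6.65) and Hey2 (9.49 and 8.3) and the receptor gene Notch3 (8.14 and 7.13).

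Of 62 lipid genes past the floor 9 were higher (14.5%) and 1 lower (1.61%). Of 46 oxidation genes 5 were higher and 5 lower (10.9% each). Over all genes past the floor the shares were 4.87% and 6.13%. Of 23 adipocyte and lipid droplet genes with a value 14 passed the floor, 5 were higher and 0 lower (median 0.76). The fatty acid carrier genes Fabp4 (8.05 and 11.41) and Fabp5 (12.45 and 13.71), the lipoprotein gene Apoe (15.38 and 16.9) and Plin4 (6.53 and 8.02) were higher, with Apod at least 1.06 higher. In fatty acid oxidation 4 of 18 were higher and 1 lower (median 0.29). They were led by Pdk4 (7.19 and 10.51), which shuts pyruvate out of the citrate cycle, and the coactivator gene Ppargc1a, at least 1.96 higher. Acot1 (7.32 and 8.67) and Acot2 (14.56 and 13.36) went opposite ways and are close paralogs, so neither is certain. Cholesterol synthesis and uptake genes stayed within 2-fold in 19 of 19, although 18 of them lay below 0 (median -0.5). Retinoid genes split by enzyme: Aldh1a1 (14.7 and 16.7) and its near copy Aldh1a7 (8.47 and 10.56) were higher, and Aldh1a2 (11.93 and 8.88), the retinoic acid synthase of the epicardium, was lower with the receptor gene Rarb (10.91 and 9.03) and Dhrs3 (15.95 and 14.46). The aryl hydrocarbon receptor gene Ahr lay below the floor with the secretome, with a bound of -2.75 (9.3 and 5.92), while its usual targets Cyp1b1 (11.2 and 11.83), Tiparp (9.55 and 9.65) and Nqo1 (9.05 and 8.58) stayed within 2-fold. NRF2 and glutathione genes were higher in 1 of 30 and lower in 1. Glycolysis and hypoxia genes were higher in 2 of 25 and lower in 2, and 0 of 35 respiratory chain and 0 of 24 ribosomal protein genes past the floor differed by 2-fold.

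Of 103 immune genes past the floor 24 were higher and 7 lower, with 6 of the higher ones in the acute phase list and 6 in the complement list. Over all genes past the floor 4.87% were higher and 6.13% lower, so the share of lower immune genes (6.8%) was near that of all genes and the share of higher ones (23.3%) above it. Of 26 NF-kB feedback and acute phase genes with a value 16 passed the floor, 6 were higher and 0 lower (median 0.91). Lbp, the carrier of bacterial lipopolysaccharide, lay at 8.85 and 13.42, a difference of 4.57, haptoglobin (Hp) at 7.58 and 9.92, and the inhibitor of apoptosis genes Birc2 at 8.35 and 10.54 and Birc3 at 11.19 and 12.71. The feedback genes Nfkbia (10.2 and 11.14) and Tnfaip3 (8.46 and 8.67) stayed within 2-fold. In complement 6 of 17 were higher and 0 lower (median 0.65): the terminal component gene C7, C2 at least 2.01, C1s1 (8.15 and 10.26), C1ra (9.22 and 10.37) and C1rb (7.13 and 8.3) of the first component, and the shield gene Cd55 (9.48 and 11.34). C1ra and C1rb are near-identical and uncertain one by one. Of 37 cytokine and chemokine genes with a value 15 passed the floor, and 4 were higher, Il15 (8.82 and 10.76), Ccl9 (11.71 and 13.5), Tslp (6.81 and 8.19) and Cxcl13 at least 0.6, and 3 were lower, Il6 with a bound of -2.24 (8.79 and 6.03), Ccl20 and Il33. Of 13 listed interferon-stimulated genes past the floor 0 differed by 2-fold (median 0.09). Outside this list the interferon response gene Ifit3b was lower (10.35 and 9.2) and the interferon-inducible gene Ifi207 higher (10.16 and 11.65). Of 12 antigen presentation genes H2-T23 (7.82 and 9.66), Tap1 (6.97 and 8.29) and H2-D1 (8.12 and 9.16) were higher, the H2 genes being uncertain because of their related copies. Of 13 serpin genes 3 were higher and 4 lower, with Serpinb9 (11.04 and 9.44) and Serpinf1 among the lower ones. Ccrl2 itself lay at 6.5 in PBS, 7.03 with the Ccrl2+ secretome and 11.37 with the Ccrl2- secretome, and Cmklr1, the signalling chemerin receptor gene, at 10.11 and 10.33 on the first pair.

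Markers of other cell types were present on both arrays and moved with the comparison in part. Of 98 cell type markers past the floor, fibroblast markers included, 17 were higher (17.3%) and 11 lower (11.2%). Over all genes past the floor the shares were 4.87% and 6.13%. The lists are small, so each rests on a few calls. Of 22 cardiomyocyte markers past the floor 5 were higher, Myoz2 (7.34 and 9.8), Myh6 (9.63 and 11.13), Actn2 (9.2 and 10.6), Myl2 (9.51 and 10.77) and Casq2 (7.82 and 8.9), and the atrial gene Myl4 was lower (13.26 and 11.54). Their median was 0.73. The log2 summed signal of all 26 cardiomyocyte markers with a value was 17.32 in PBS and 18.13 with the secretome, against 21.11 in CM with PBS. The sums of the other marker lists below also take every marker with a value. Of 23 macrophage markers past the floor, which bear on whether macrophages were in the wells, 4 were higher and 3 lower (median 0.17). The log2 summed signal of all 25 macrophage markers with a value was 15.98 and 16.18. Mertk, the efferocytosis receptor (10.25 and 11.67), C1qc (9.84 and 11.07) and Ctss (10.61 and 11.73) were higher, with Lyve1 at least 0.91 higher. Aif1 (9.03 and 6.56), Cx3cr1 (8.63 and 6.88) and Cd14 (8.54 and 7.28) were lower, while Csf1r (11.95 and 11.13), Lyz2 (12.52 and 13.47) and Spi1 (14.39 and 13.94) stayed within 2-fold. Endothelial markers summed to 15.44 and 15.75, with Fabp4 and Aqp1 (7.98 and 9.05) higher and Tek (11.06 and 9.6) lower, and Pecam1 stayed at 8.31 and 8.55. Epicardial and mesothelial markers summed to 15.46 and 16.17, with Msln (10.56 and 13.28) and Upk1b (13.64 and 14.82) higher and Aldh1a2 lower. Smooth muscle and pericyte markers summed to 17.94 and 17.58. Of the neutrophil markers with a value only Lcn2 passed the floor, of the lymphocyte markers only Cd4 (6.55 and 6.04), and of the mast cell markers only Kit (8.8 and 6.28). The part of these cells in the results above was not tested, and in a bulk sample fewer cells of a type and less RNA per cell cannot be told apart.

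The CM array with the same Ccrl2+ secretome lay far closer to its own PBS array. In the fibroblast pair 19.7% of negative controls past the floor reached 2-fold, and this share was not counted for the CM pair. With 1 array a side, a noisier fibroblast pair and a weaker CM response cannot be told apart. In CM, of 10009 genes past the floor, 21 (0.21%) differed by 2-fold upward and 63 (0.629%) downward, 0.839% in either direction against 11.0% in fibroblasts, and these comparisons share no array. Of the 1105 fibroblast genes and the 84 CM genes at 2-fold, 9 differed in the same direction, 0.814% of the fibroblast list and 10.7% of the CM list. The 4 higher in both were Fmo2 (8.18 to 9.31 in CM), Dpep1 (5.87 to 6.96), the mTOR inhibitor gene Deptor (6.72 to 7.75) and Ndufa4l2 (7.54 to 8.78). The 5 lower in both were Ly86 (10.15 to 8.99 in fibroblasts and 10.63 to 9.52 in CM), Gpr65, Cd80, Slc15a3 and Ifit3b, genes known from leukocytes or, for Ifit3b, from the interferon response. Some of these differences were under 2-fold against the floor. They were those of Ndufa4l2 (5.76 to 6.78) and Cd80 (6.87 to 5.54) in fibroblasts, and of Dpep1 and Gpr65 (7.5 to 6.22) in CM. Opposite directions were found in 12 genes. Over the 9448 genes past the floor in both cell types the 2 sets of differences had a Pearson correlation of -0.02. The lists that set the fibroblast result apart had medians closer to 0 in CM than in fibroblasts. The mitosis and replication lists, below 0 in fibroblasts, lay above 0 in CM, from 0.13 for the spindle checkpoint to 0.51 for cytokinesis. For members past the floor in fibroblasts, the CM medians were -0.2 for glucocorticoid targets, 0.33 for cyclins and mitotic kinases and 0.44 for kinesins. They were 0.05 for serine, glycine and asparagine synthesis and -0.04 for activated fibroblast genes. In fibroblasts with the Ccrl2- secretome, against the same PBS array, the medians of these named lists were, in the same order, 0.16, -0.16, -0.22, 0.01 and -0.45. For single genes the Ccrl2- values were 11.31 for Ccna2, 14.1 for Mki67 and 16.42 for Asns, each close to PBS, 12.98 for Serpina3n and 11.18 for Fmo1, between PBS and Ccrl2+, and 14.65 for Aldh1a2, above PBS.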

How the data were processed

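Total RNA from fibroblast and cardiomyocyte cultures, 1 to 8 ug, was made into biotin-labelled cRNA for Affymetrix arrays, per the labels' protocols. Values on the log2 scale, 1 per probe set and array, were deposited as computed by the authors in Affymetrix Expression Console, as the tool is named per the submitters' processing notes. The version, algorithm and annotation behind them are not given in the sources used. The sorted values of the 6 arrays lie within 0.3 of each other, with a mean gap of 0.09, so the arrays were already alike in overall level as deposited. No scanner files were used, and 0 deposited columns were left out.

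Of 28846 probe sets, 19572 had 1 gene symbol, 0 several and 9274 none. Every one of the 19572 had an Entrez identifier in RefSeq's GRCm38.p6 gene table, and 0 symbols changed. For 55 genes with several probe sets the one with the highest mean was used. Of these, 17 had more than 1 probe set past the floor, whose differences spread over a median of 0.56, and in 5 the sign differed. Genes were counted where the higher value reached 6.55 and the difference reached 2-fold. A value below 6.55 gives a bound against it. With 1 array a group there is no test and no p-value. The counting was tested on simulated data.

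The members and the 76 gene lists were chosen with earlier results of these data known. The naming rule took the 25 largest measured differences and the 15 largest bounds per direction, up to 8 members of each list with the largest difference and up to 2 nearest 0, all cell type markers, Ccrl2 and genes shared with CM. Predicted and small RNA genes were left out. Agtr1a, Asns, Ccnb2, Cdkn1b, Clock, Col4a1, E2f4, Ern1, Fn1, Gadd45b, Gars, Gins4, Got1, H2ac10, H3c6, Igf1, Jdp2, Klf9, Klf15, Lox, Matn2, Mgp, Mt1, Mt2, Nupr1, Plk1, Qars, Shmt2, Slc38a2, Sult1a1, Tgfb3, Tgm2 and Tpx2, and the further members of gene families, lie outside the rule and were chosen after their values were seen. Alternatives were 1.5- and 3-fold thresholds, the floor at the 75th percentile or left out, quantile normalization, removal of a loess trend (span 0.4), averaging over a gene's probe sets and values raised to the floor. Motifs were searched in the RefSeq promoter table. The work was done in Python 3.11.15 with pandas 2.3.3, numpy 2.4.6 and statsmodels 0.14.6 (loess), and figures were drawn with matplotlib 3.10.9.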

Additional observations from a re-analysis of the deposited data

Results flagged for a closer look

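Opposite directions with the same Ccrl2+ secretome, at least 2-fold each way, were seen in 12 of the 9448 genes past the floor in both cell types. Shares over all genes past the floor were 4.87% higher and 6.13% lower in fibroblasts, and 0.21% and 0.629% in CM. The differences of the 12 genes from PBS are given first for fibroblasts and then for CM. Each rests on 1 array a side, and the difference between the cell types was not tested. Higher in fibroblasts and lower in CM were 9 genes, most of them known from macrophages: the complement component gene C1qc (1.23 and -1.3), the complement receptor gene Vsig4 (3.02 and -1.1), the chemokine genes Ccl6 (3.05 and -1.59) and Ccl9 (1.79 and -1.15), and the secreted inhibitor gene Wfdc17 (3.09 and -1.33). The inhibitory receptor gene Pirb (1.95 and -1.23), the neighbouring genes Ms4a6b (2.42 and -1.15) and Ms4a6d (2.11 and -1.01), and the interferon-inducible gene Ifi207 (1.49 and -1.23) showed the same. The Ms4a6 and Ifi200 genes and Pirb have close relatives and are uncertain one by one. Lower in fibroblasts and higher in CM were 3 genes, the mitosis genes Depdc1a (-1.85 and 1.0) and Ska3 (-2.23 and 1.26) and the lactate transporter gene Slc16a3 (-1.06 and 1.25). In fibroblasts the PBS values of Vsig4 (4.24), Wfdc17 (6.08) and Pirb (5.75) and the secretome value of Ska3 (5.87) lay below the floor. Against the floor these 4 fibroblast differences are smaller than given. The log2 summed signal of all macrophage markers was 15.98 in PBS and 16.18 with the Ccrl2+ secretome in fibroblasts, and 16.23 with PBS and 15.43 with the Ccrl2+ secretome in CM. The markers past the floor in fibroblasts had a median difference of 0.17 there and -0.83 in CM, so in CM the marker list was lower together with these genes. Its part in them was not tested.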

How the results depend on the processing

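Counts of genes past a threshold followed the threshold and the floor. At 1.5-fold 1148 genes were higher and 1504 lower, at 3-fold 215 and 212, and with the floor at the 75th percentile (10.14) 228 and 284. The other counts stayed within 1.5 times of 489 and 616, among them 546 and 561 after quantile normalization and 541 and 551 without the loess trend, each of which moved the median of all genes by 0.06. Genes in the same direction in fibroblasts and CM numbered 85 at 1.5-fold, 0 at 3-fold, 2 with the higher floor and 5 with values raised to the floor. No list median that had reached 1 changed sign. Of 75 list medians 12 moved by 0.25 or more with the higher floor, 10 without a floor, 6 with values raised to the floor and 0 after quantile normalization or without the loess trend. With values raised these included replication (-0.71) and recombination repair (-0.78). Without a floor they included adipocyte genes (0.2), NF-kB and acute phase genes (0.62) and complement (0.4). With the higher floor they included NF-kB and acute phase genes (1.52), cytokinesis (-2.17), E2F, Rb and DREAM regulators (-0.03), amino acid transporters (-0.43), interferon-stimulated genes (-0.49) and macrophage markers (0.78). Of 703 named genes past the floor 12 dropped under 2-fold without the loess trend and 10 after quantile normalization. No paired analysis was possible because each group had 1 array. Values under 10.73 lie within the range of 95% of the negative controls, which limits every low gene.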

Other observations

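Gene families told by their symbols gave a view outside the lists. Of 26 ATP-binding cassette transporter genes (Abc) past the floor 7 were higher with the Ccrl2+ secretome in fibroblasts, by 2-fold or more, and 0 lower, against 4.87% and 6.13% of all genes past the floor. They included the sterol exporter gene Abcg1 (6.92 and 8.54), the drug efflux gene Abcg2 (13.7 and 15.03), Abca6 (9.29 and 11.35), the peroxisomal transporter gene Abcd2 (6.85 and 8.69) and Abcc4 (7.75 and 8.95). Krüppel-like factor genes were higher in 5 of 13 and lower in 0, with Klf11 (7.06 and 8.62), Klf13 (11.23 and 12.94) and Klf7 (12.54 and 13.63) beside Klf9 and Klf15. Cytochrome P450 genes were higher in 5 of 18 and lower in 0, among them Cyp27a1 (10.45 and 11.88), Cyp2d22 (9.46 and 11.23), Cyp2s1 (9.46 and 10.91) and Cyp4b1 (6.63 and 8.49). Glutathione S-transferase genes were higher in 5 of 16 and lower in 0, with Gstm1 at 15.22 and 16.43, although the Gstm genes are close copies. Aldehyde dehydrogenase genes were higher in 6 and lower in 3 of 12, with Aldh2, which clears acetaldehyde, at 13.09 and 15.43. Large families stood still: 0 of 44 proteasome genes (Psm), 0 of 48 Rab genes, 0 of 37 Rpl and 0 of 29 Rps ribosomal protein genes differed by 2-fold, and of 256 zinc finger genes named Zfp 3 were higher and 4 lower.

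Some neighbouring genes differed together. Apart from the histone clusters, runs of at least 3 neighbouring genes past the floor that were all higher lay on chromosome 19 (Ms4a6b, Ms4a4d and Ms4a6d, and Anxa1, Aldh1a1 and Aldh1a7), chromosome 6 (C1rl, C1ra, C1s1 and C1rb) and chromosome 3 (Gstm7, Gstm6 and Gstm3). A run that was lower lay on chromosome 4 (Tnc, Pappa and Astn2). The first 4 runs hold gene copies whose probes can bind related transcripts, Anxa1 excepted, so a run need not be independent evidence for each of its genes. Anxa1, a lipid-binding protein with anti-inflammatory actions, lay at 15.69 and 16.88.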
